A study of Rattus norvegicus with 10 samples.

Results

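The proteasome genes described here are the 50 gene symbols of the deposited count table that start with Psma, Psmb, Psmc, Psmd, Psme, Psmf or Psmg and a digit, out of 13686 symbols in all. Of these, 47 are subunits, assembly factors or regulators of the proteasome. The other 3 are Psma3l, whose gene model overlaps that of Psma3 and which RefSeq lists as a synonym of Psma3, and Psmc3ip and Psme3ip1, which encode proteins that interact with a proteasome subunit or with an activator. A filter on low counts left 48 of the 50 for testing, out of 11771 genes. Psma8, with 0 to 3 counts per library, and Psmb11, with 6 to 18, did not pass it. Psmg3, the partner of Psmg4 in assembly of the core, was not analysed here.

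RNA came from the left hippocampus of 10 male TgF344-AD rats. This line carries human transgenes of familial Alzheimer disease, and every animal of both groups was transgenic. The BT-11 group (n = 5) ate chow with BT-11, a compound known as an orally active ligand of LANCL2, from 5 months of age for 6 months, and the untreated group (n = 5) ate rodent chow without it. Both groups were taken at 11 months under 100 mg/kg ketamine and 10 mg/kg xylazine, and each library is 1 animal. No rat without the transgenes is compared here, and the values describe whole tissue, in which fewer cells of a type and less RNA per cell cannot be told apart.

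The proteasome degrades proteins that carry ubiquitin chains. Its 20S core is a barrel of alpha rings, which gate the entrance, around beta rings, of which Psmb5, Psmb6 and Psmb7 hold the active sites. A 19S cap binds the chain, removes it and threads the substrate into the core, using a ring of ATPases (Psmc genes) and non-ATPase subunits (Psmd genes). In cells exposed to interferon gamma, Psmb8, Psmb9 and Psmb10 take the place of the constitutive active subunits and form the immunoproteasome, which is known for making peptides for antigen presentation. In brain it is known mainly from glia, microglia among them. Other caps, PA28 (Psme1 with Psme2, or Psme3) and PA200 (Psme4), open the core without ATP, and Psmf1 binds the core as an inhibitor in vitro.

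Most proteasome genes had a slightly lower level with BT-11, and none passed the test. Of the 48 tested, 38 (79.2%) had a log2 fold change below 0, against 51.8% of all genes tested, and the median log2 fold change was -0.068, against -0.0065 over all genes. edgeR's quasi-likelihood test called 0 of the 48 at an adjusted p of 0.05, and it called 0.0% of all 11771 genes. DESeq2 also called 0 of them, with 0.292% of all genes called, and limma-voom called 0. At an unadjusted p under 0.05, 4 of the 48 (8.33%) were called, all lower with BT-11, against 9.09% of all genes in either direction, 5.05% lower and 4.04% higher. These were Psme1, Psmb9, Psmc5 and Psme3. In 0 of the 48 did the 5 BT-11 libraries lie wholly apart from the 5 untreated ones, against 1.12% of all genes in either direction and 0.544% in the lower direction. The direction of the median rested on untreated replicates 1 and 2, as the values by library given further on show. Without both of them, 49 members passed the filter, 19 of these were lower, against 49.1% of all genes, and the median was 0.035. These 2 libraries were left out because the members were highest there, so that the choice itself raises the median. Untreated replicates 4 and 5, where the members were lowest among the untreated libraries, were not left out as a pair on their own.

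**Figure D1:**
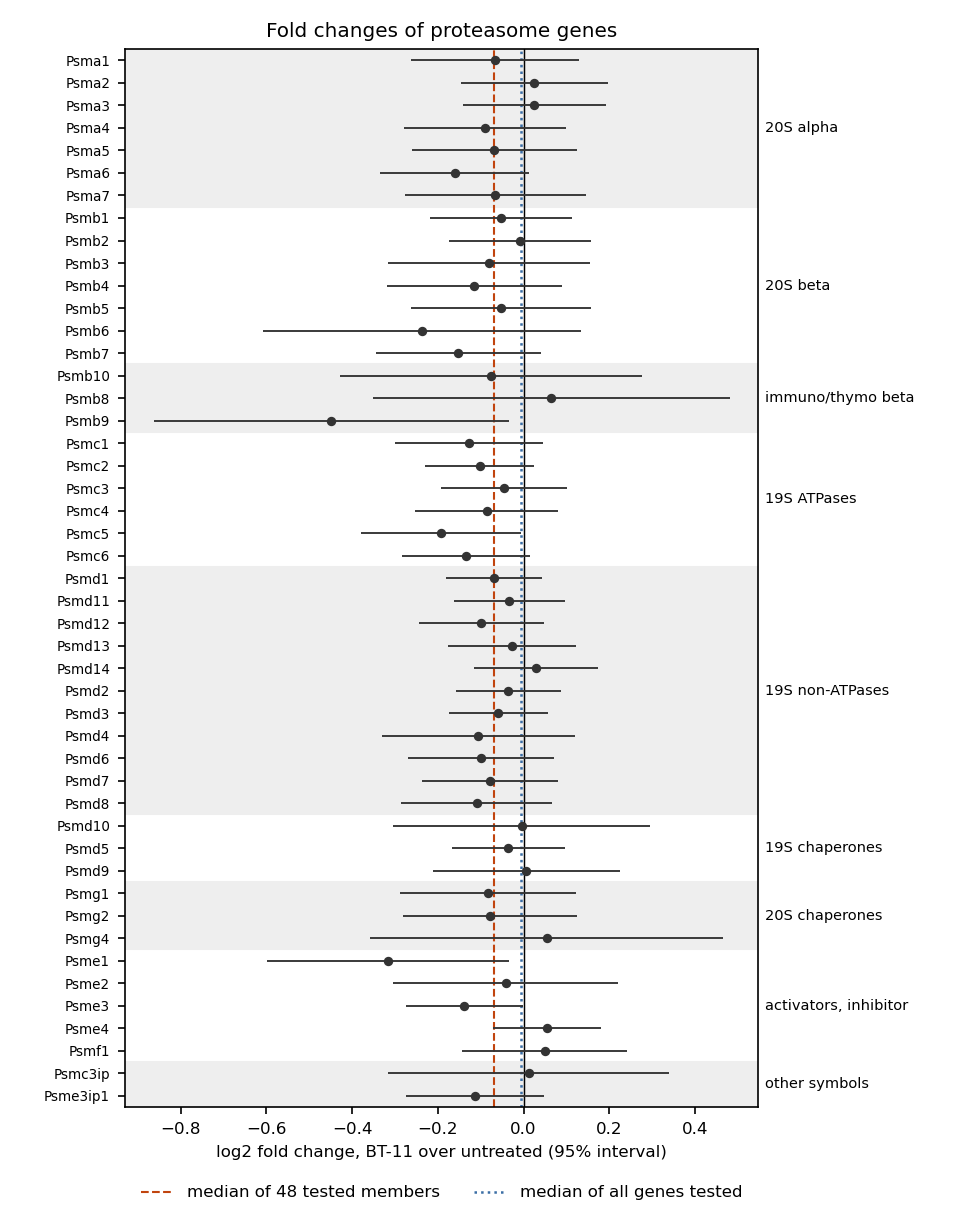
Log2 fold change of 47 tested proteasome genes, BT-11 over untreated, with its 95% interval from edgeR, grouped by role (Psma3l, whose interval runs from -1.44 to 1.66, is left out). Most points lie left of 0, the dashed line is the median of the 48 tested members (-0.068) and the dotted line that of all genes (-0.0065); most intervals include 0.

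The libraries held 10538161 ± 618560 counts in BT-11 and 9578407 ± 972638 counts in untreated rats (SD, n = 5 each), with 8984439 the lowest and 11301545 the highest total. Levels are given as CPM, the count scaled to a common library size, and each log2 fold change is BT-11 over untreated, followed by its standard error. Markers of hippocampal neurons, 5 of 7 tested higher with BT-11, summed to 741 to 1243 CPM in BT-11 and 702 to 1046 CPM in untreated rats. Within this list, some markers set untreated replicates 1 and 2 apart and others did not. Prox1, of dentate granule cells, was lowest there, at 21.6 and 26.9 CPM, against 52.2 to 92.3 CPM in the other 8 libraries. C1ql2 was also lowest there, at 33.9 and 47.3 CPM, with untreated replicate 5 next at 48.2 CPM. Neurod6 and Bok were highest of all libraries in untreated replicate 1, at 496 and 81.6 CPM. In untreated replicate 2 they were at 351 and 57.4 CPM. Wfs1 ran from 201 to 459 CPM in BT-11 and from 91.9 to 284 CPM in untreated libraries. Choroid plexus markers summed to 9.78 to 32.2 CPM in BT-11 and 11.9 to 3811 CPM in untreated libraries, untreated replicate 2 being the highest and untreated replicate 5 next to it at 727 CPM. Pan-neuronal markers summed to 6834 to 8654 CPM in BT-11 and 8244 to 9922 CPM in untreated libraries, with 9 of 10 lower. These sums hide opposite patterns among the untreated libraries. Snap25 was at 4564 and 4072 CPM in untreated replicates 1 and 2, and at 3610 and 3138 CPM in untreated replicates 4 and 5. Map2 was at 537 and 545 CPM in untreated replicates 1 and 2, and at 1526 and 1711 CPM in untreated replicates 4 and 5. Astrocyte markers were lower in 8 of 9 and summed to 6274 to 6734 CPM in BT-11 and 6287 to 7366 CPM in untreated libraries. Slc1a2 was at 116 and 127 CPM in untreated replicates 1 and 2, and at 369 and 491 CPM in untreated replicates 4 and 5. Gjb6 went the other way, at 69.6 and 65.7 CPM in untreated replicates 1 and 2, and 51.2 and 53.4 CPM in untreated replicates 4 and 5. Oligodendrocyte markers were higher in 9 of 9, with sums of 8407 to 15120 CPM in BT-11 and 7961 to 16070 CPM in untreated libraries. The part of these cell types in the proteasome values was not tested.

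Levels between genes are compared as CPM per kilobase of gene model, averaged over all 10 libraries. The highest was Psmc5, an ATPase of the 19S base, at 152.7 CPM per kilobase, followed by Psmb7 at 144, Psmb1 at 132 and Psmc1 at 131. The constitutive 20S subunits other than Psmb6 lay between 29.6 for Psma3 and 144 for Psmb7, a 4.87-fold range, with a median of 94.1. Psma3, like Psmb6, has fractional counts and copies named in RefSeq, so the lower end of this range is uncertain. The next lowest tested subunit of these was Psma5 at 69.3. The 19S subunits lay between 26.6 for Psmd11 and 153 for Psmc5, with a median of 72.1. Assembly chaperones, which act on intermediates and leave the finished particle, stood lower, at 11.6 to 16.9 CPM per kilobase for those of the 19S base and 11.2 to 24.8 for those of the core. Of the immunoproteasome subunits, Psmb10 lay within the range of the chaperones at 13.6, and Psmb9 and Psmb8 lay below it at 4.47 and 3.89. Psmb6 was far below its ring neighbours at 14.1 CPM per kilobase, its counts were fractional in all 10 libraries, and RefSeq names close copies of it, so that its level is uncertain: reads may have been shared out among the copies. RefSeq names 52 such copies for 19 of the members in all. The lowest tested level was that of Psma3l, at 1.30.

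**Figure D2:**
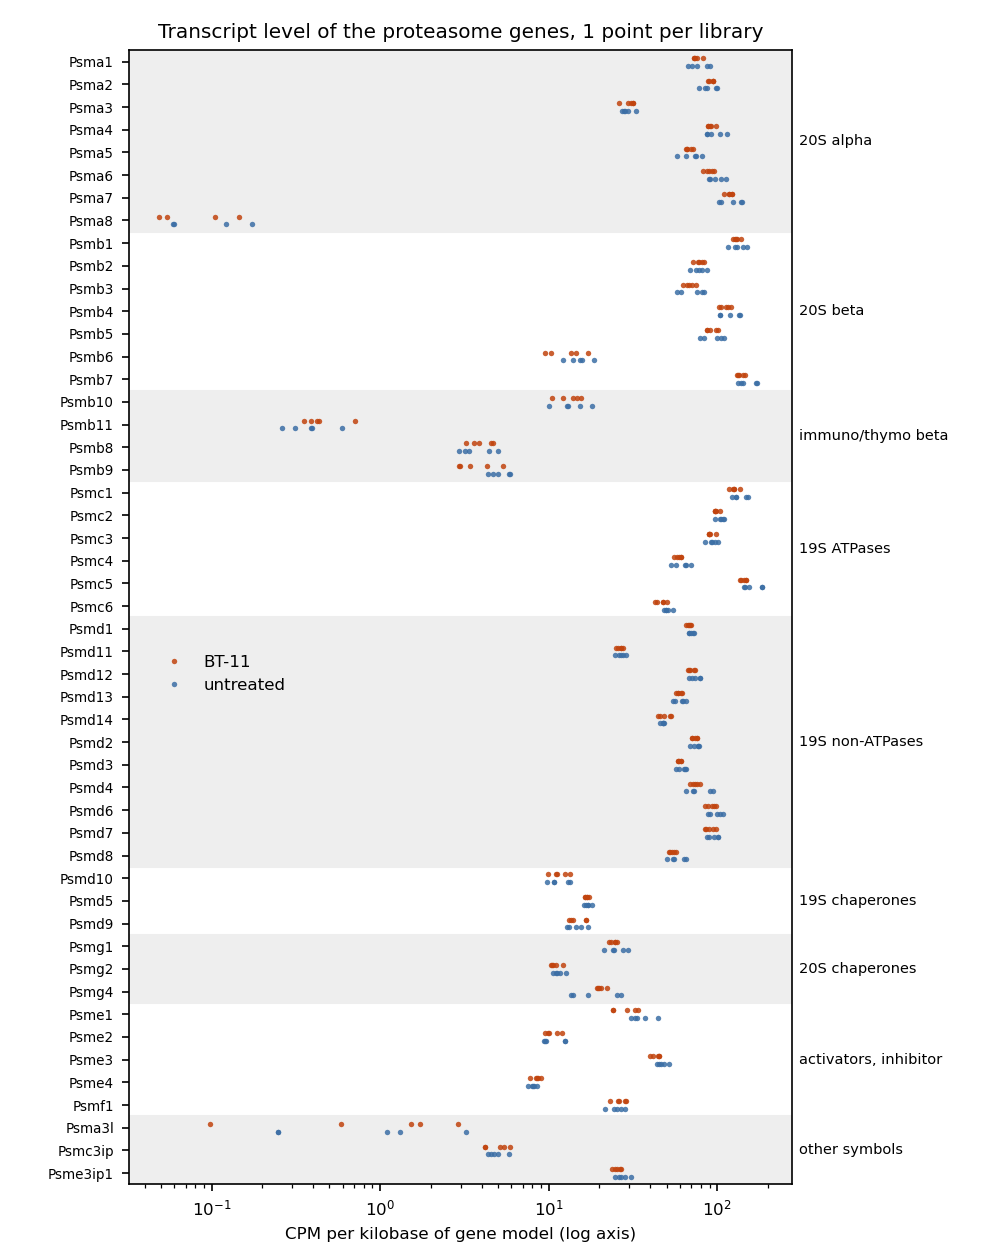
Level of each of the 50 proteasome symbols in CPM per kilobase of gene model (log axis), 1 point per library, BT-11 above untreated for each gene; libraries with 0 counts of Psma8 are not drawn. The 20S and 19S subunits other than Psmb6 and Psma8 sit between about 25 and 190, and the immunoproteasome subunits between about 3 and 20.

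Of the 7 tested alpha ring subunits, 5 were lower with BT-11 and 0 were called, with a median log2 fold change of -0.067. Psma6 had the smallest p among the lower ones. It was at 91.3, 78.9, 85.5, 83.3 and 88.7 CPM in BT-11 replicates 1 to 5, against 101, 108, 93.4, 86.0 and 86.45 CPM in untreated replicates 1 to 5. The untreated replicates 1 and 2 were the highest of the 10, and the groups overlapped. Its log2 fold change was -0.16 ± 0.080 (edgeR, adjusted p = 0.580). Psma3 had the smallest p among the 2 that were higher, with 62.1, 51.5, 62.6, 60.5 and 57.85 CPM in BT-11 replicates 1 to 5, against 53.6, 65.1, 54.6, 58.0 and 56.1 CPM in untreated replicates 1 to 5. Its log2 fold change was 0.025 ± 0.077 (edgeR, adjusted p = 0.937). Psma3l, at 93423004 to 93441931 of chromosome 6 as listed in build rn6, overlaps most of Psma3 (93423029 to 93443026), and both have fractional counts. Summed over both models, the locus held 60.1 ± 3.95 CPM in BT-11 and 58.6 ± 4.36 CPM in untreated rats (SD, n = 5 each). Psma8, the alpha subunit known from testis, had at most 0.268 CPM in BT-11 and 0.321 CPM in untreated libraries.

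All 7 constitutive beta subunits had a lower mean in the fit, with log2 fold changes of -0.24 to -0.0075, a median of -0.080 and 0 called. Psmb7, which carries the trypsin-like site, was at 143, 128, 138, 131 and 127.5 CPM in BT-11 replicates 1 to 5, against 167, 166, 139, 134 and 129 CPM in untreated replicates 1 to 5. Untreated replicates 1 and 2 stood above all 8 others, and the remaining untreated values lay within the BT-11 range. The log2 fold change of Psmb7 was -0.15 ± 0.088 (edgeR, adjusted p = 0.631), the smallest p of the ring. Psmb5, with the chymotrypsin-like site, was at 83.7, 86.1, 74.4, 77.4 and 73.75 CPM in BT-11 replicates 1 to 5, against 89.5, 93.6, 84.8, 67.0 and 71.3 CPM in untreated replicates 1 to 5. The lowest and the highest value were both untreated, and its log2 fold change was -0.053 ± 0.097 (edgeR, adjusted p = 0.889). Psmb6, with the caspase-like site, had 13.2, 11.28, 7.36, 7.94 and 10.5 CPM in BT-11 replicates 1 to 5, against 14.4, 12.3, 11.9, 9.41 and 10.8 CPM in untreated replicates 1 to 5. Its log2 fold change was the most negative of the ring, -0.24 ± 0.17 (edgeR, adjusted p = 0.701), and its interval from -0.61 to 0.13 includes 0. Leaving out 1 library moved it between -0.35 without BT-11 replicate 1 and -0.14 without untreated replicate 1.

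Among the immunoproteasome subunits, Psmb9 was lower with BT-11 before adjustment, while Psmb8, which lies beside it in the genome, and Psmb10 were not. Psmb9 (chromosome 20, 3973424 to 3978846, minus strand) and Psmb8 (3990809 to 3993773, plus strand) flank Tap1, a subunit of the peptide transporter of antigen presentation, with 456 bases between Psmb9 and Tap1 on opposite strands. These positions are as listed in build rn6. In build GRCr8 the order and the strands of Psmb9 and Psmb8 are reversed. The promoter sequences, taken from RefSeq in build GRCr8, from 250 bases before to 50 bases after the start of each gene, are shown for the 3 immunoproteasome subunits and for Psmb5, which Psmb8 replaces. Capitals mark letters that match the core of the interferon-stimulated response element (GAAA, any 2 bases and GAAA again), TTCNNNGAA (gamma-activated site) or TGACNNNGC (antioxidant response element), each searched on both strands.
Psmb8, chr20:4656982-4657281, minus strand: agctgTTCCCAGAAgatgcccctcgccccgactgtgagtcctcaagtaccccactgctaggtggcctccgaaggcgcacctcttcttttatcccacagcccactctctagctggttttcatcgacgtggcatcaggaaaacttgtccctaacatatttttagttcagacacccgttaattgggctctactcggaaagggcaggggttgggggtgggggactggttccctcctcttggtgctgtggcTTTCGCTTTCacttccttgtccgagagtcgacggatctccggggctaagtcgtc
Psmb9, chr20:4668750-4669049, plus strand: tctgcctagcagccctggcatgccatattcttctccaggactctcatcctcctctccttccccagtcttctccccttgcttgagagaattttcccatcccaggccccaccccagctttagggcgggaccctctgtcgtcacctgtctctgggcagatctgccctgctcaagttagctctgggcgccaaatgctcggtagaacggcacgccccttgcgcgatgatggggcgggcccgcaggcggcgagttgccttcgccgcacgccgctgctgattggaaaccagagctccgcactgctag
Psmb10, chr19:50743243-50743542, minus strand: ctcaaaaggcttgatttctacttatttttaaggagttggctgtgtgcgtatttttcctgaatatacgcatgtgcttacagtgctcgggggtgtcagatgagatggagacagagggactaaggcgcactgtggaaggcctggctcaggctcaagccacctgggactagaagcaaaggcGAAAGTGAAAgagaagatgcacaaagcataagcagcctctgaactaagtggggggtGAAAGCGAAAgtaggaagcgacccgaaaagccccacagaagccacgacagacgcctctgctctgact
Psmb5, chr15:32047330-32047629, minus strand: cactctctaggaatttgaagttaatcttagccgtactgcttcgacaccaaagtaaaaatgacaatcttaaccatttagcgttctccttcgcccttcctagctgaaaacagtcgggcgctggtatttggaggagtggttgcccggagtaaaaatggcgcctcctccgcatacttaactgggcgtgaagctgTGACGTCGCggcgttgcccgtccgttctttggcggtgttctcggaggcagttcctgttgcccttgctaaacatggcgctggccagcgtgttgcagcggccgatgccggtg

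The Psmb8 window holds TTTCGCTTTC, the reverse strand form of the interferon-stimulated core, and TTCCCAGAA. The Psmb10 window holds GAAAGTGAAA and GAAAGCGAAA. The Psmb9 window matched none of these 3 motifs, and the Psmb5 window holds TGACGTCGC. The interferon-stimulated core was present in 7 of the 42 member promoters searched (16.7%), against 3.77% of all 27457 promoters in the table. These 7 were Psma4, Psmb3, Psmb8, Psmb10, Psmd7, Psme2 and Psmg4, and Psme2 is the sole PA28 gene among them. The Psme1 window ends in TTTCGCTT, the start of the reverse strand form, and cuts off the letters after it. The search therefore cannot decide whether Psme1 has the core. TGACNNNGC was in 8 (19.05%), against 12.2% of all, and TTCNNNGAA in 4 (9.52%), against 8.68%. ACTTCCG, a site of ETS factors, was in 16 (38.1%), against 6.70% of all promoters. CCAAT was in 20 (47.6%), against 37.7%, and CACGTG, an E-box, in 5 (11.9%), against 6.65%. Member promoters had a median of 17.5 CpG dinucleotides, against 7 over all promoters. A match is a match of letters and says nothing of binding.

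Psmb9 was at 3.93, 4.92, 2.71, 3.10 and 2.68 CPM in BT-11 replicates 1 to 5, against 5.34, 5.28, 4.28, 4.56 and 3.98 CPM in untreated replicates 1 to 5. Of the BT-11 libraries, 4 lay below all 5 untreated ones, replicate 1 by a narrow margin, and BT-11 replicate 2 lay within the untreated range. These levels rest on 28 to 49 counts per library. The log2 fold change was -0.45 ± 0.19 with a 95% interval of -0.86 to -0.034 (edgeR, adjusted p = 0.520). Psmb8 was at 3.93, 4.21, 4.94, 3.502 and 5.10 CPM in BT-11 replicates 1 to 5, against 5.45, 3.19, 4.81, 3.67 and 3.45 CPM in untreated replicates 1 to 5. Its values mixed freely between the groups, and its log2 fold change was 0.065 ± 0.19 (edgeR, adjusted p = 0.934). Psmb10 had 14.7, 15.45, 13.8, 12.2 and 10.4 CPM in BT-11 replicates 1 to 5, against 18.1, 12.9, 15.4, 10.02 and 13.01 CPM in untreated replicates 1 to 5. Both its extremes were untreated, and its log2 fold change was -0.076 ± 0.16 (edgeR, adjusted p = 0.906). Psmb11, the thymic counterpart of Psmb5, had at most 1.81 CPM in BT-11 and 1.497 CPM in untreated libraries.

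The balance of immunoproteasome and constitutive transcripts overlapped between the groups in every ratio computed. As CPM ratios not divided by length, Psmb8 stood at 5.53 ± 1.15% of Psmb5 in BT-11 and 5.10 ± 1.05% in untreated rats (SD, n = 5 each). Psmb10 stood at 9.98 ± 1.43% of Psmb7 in BT-11 and 9.46 ± 1.71% in untreated rats. Psmb9 stood at 34.9 ± 7.27% of Psmb6 in BT-11 and 40.3 ± 5.37% in untreated rats, a ratio that shares the uncertainty of Psmb6. Per kilobase, Psmb8, Psmb9 and Psmb10 made up 7.98 ± 0.738% of the summed catalytic transcripts in BT-11 and 8.02 ± 0.883% in untreated hippocampi. Leaving out Psmb9 and Psmb6, that share was 6.998 ± 0.560% in BT-11 and 6.69 ± 1.05% in untreated rats. These ratios are given without a test. Beside them, microglial markers, 5 of 10 lower, summed to 526 to 592 CPM in BT-11 and 509.5 to 630.4 CPM in untreated libraries. Of the T and NK cell markers the table held Cd3e and Gzma, which summed to 2.86 to 7.70 CPM in BT-11 and 0.0885 to 5.24 CPM in untreated libraries, and the other 6 were not analysed here. Endothelial markers summed to 230.5 to 310.4 CPM in BT-11 and 242 to 289 CPM in untreated libraries. The part of these cells in the immunoproteasome values was not tested.

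**Figure D3:**
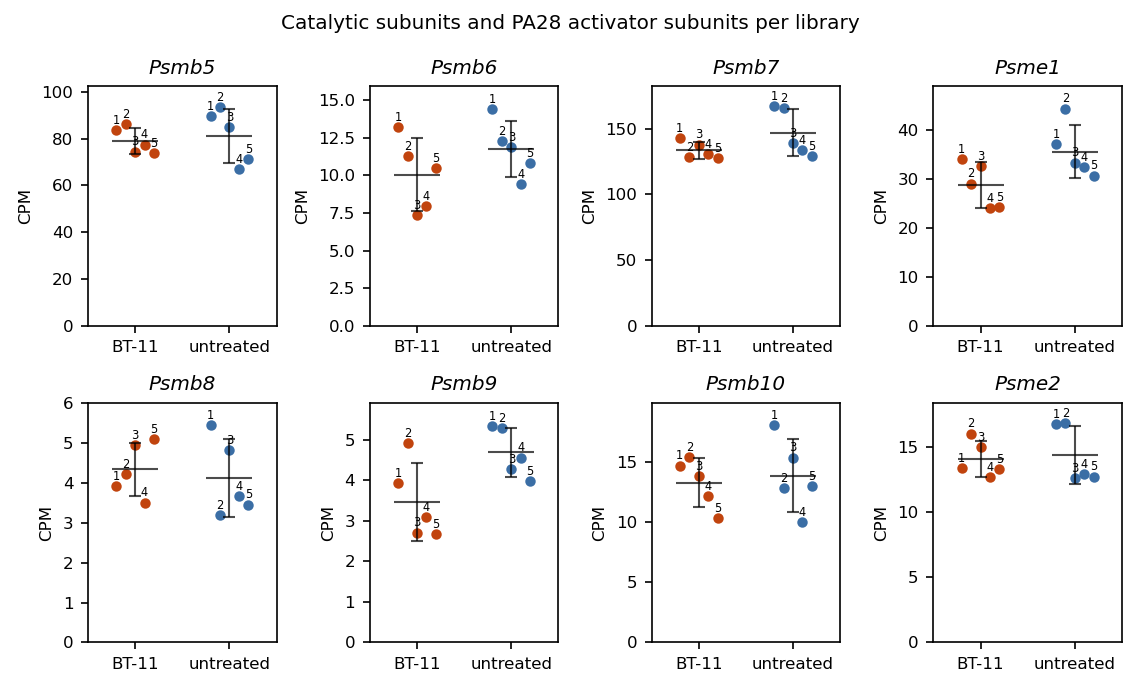
CPM of the 3 constitutive catalytic subunits and Psme1 (top) and of the 3 immunoproteasome subunits and Psme2 (bottom) in each library, numbered by replicate, with mean and SD (n = 5 each), BT-11 left of untreated. In every panel the groups overlap; Psmb9 averages 3.47 CPM in BT-11 and 4.69 CPM in untreated rats, and Psme1 averages 28.7 CPM in BT-11 and 35.5 CPM in untreated rats.

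The 6 ATPases that form the motor ring of the 19S base all had log2 fold changes below 0, from -0.19 to -0.046 with a median of -0.11, the lowest of the lists of subunits, and 0 were called. Psmc5 was at 192, 185, 190.3, 179 and 176 CPM in BT-11 replicates 1 to 5, against 236, 237, 188.5, 198 and 185 CPM in untreated replicates 1 to 5. Untreated replicates 1 and 2 were far above the other 8 libraries, which lay together between 176 and 198 CPM. The log2 fold change was -0.19 ± 0.086 with an interval of -0.38 to -0.0062 (edgeR, adjusted p = 0.534). Without those 2 untreated libraries it was -0.047 (edgeR, adjusted p = 0.852). Psmc6 had 110.5 ± 7.44 CPM in BT-11 and 120.2 ± 6.28 CPM in untreated rats (SD, n = 5 each), a log2 fold change of -0.13 ± 0.069 (edgeR, adjusted p = 0.594). Psmc1 had 194 ± 11.1 CPM in BT-11 and 209.9 ± 20.9 CPM in untreated rats, and Psmc2 had 138 ± 4.26 CPM in BT-11 and 147 ± 6.81 CPM in untreated rats. Psmc3 and Psmc4 had the changes nearest 0, at -0.046 and -0.085.

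Of the 11 non-ATPase subunits of the 19S cap, 10 were lower, with a median log2 fold change of -0.069 and 0 called. Psmd12, a subunit of the lid, had the smallest p among them. It was at 108, 101, 102, 99.55 and 109 CPM in BT-11 replicates 1 to 5, against 117.5, 118, 109.8, 101 and 106 CPM in untreated replicates 1 to 5, and its log2 fold change was -0.099 ± 0.067 (edgeR, adjusted p = 0.680). The 3 highest libraries were untreated, and the other 2 untreated ones lay inside the BT-11 range. Psmd14, the deubiquitinase that cuts the chain from the substrate, was the exception in direction. Its values were 79.4, 67.4, 72.8, 69.3 and 79.8 CPM in BT-11 replicates 1 to 5, against 71.7, 72.4, 69.2, 72.9 and 72.1 CPM in untreated replicates 1 to 5, with a log2 fold change of 0.030 ± 0.067 (edgeR, adjusted p = 0.911). Its untreated libraries lay within a few CPM of each other, with BT-11 replicates 3 and 4 among them, BT-11 replicates 1 and 5 above and BT-11 replicate 2 below. The ubiquitin receptor Psmd4 had 98.6 ± 4.98 CPM in BT-11 and 105 ± 16.8 CPM in untreated rats. The large scaffold subunits Psmd1 and Psmd2 varied little, with 207 ± 5.59 and 212 ± 8.19 CPM in BT-11 and 215 ± 6.51 and 216 ± 10.6 CPM in untreated rats (SD, n = 5 each). The other 7, Psmd3, Psmd6, Psmd7, Psmd8, Psmd11, Psmd12 and Psmd13, are lid subunits and ran from -0.11 for Psmd8 to -0.027 for Psmd13.

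Of the assembly chaperones, 0 were called. The median log2 fold change was -0.0046 for those of the 19S base and -0.078 for those of the core. Some intervals were wide, such as -0.36 to 0.46 for Psmg4. For the 19S base, Psmd5 was at 33.5, 33.5, 34.5, 34.5 and 35.3 CPM in BT-11 replicates 1 to 5, against 34.1, 36.9, 35.1, 34.7 and 33.3 CPM in untreated replicates 1 to 5, with a log2 fold change of -0.035 ± 0.060 (edgeR, adjusted p = 0.883). Psmd9 was at 22.2, 22.3, 17.6, 18.8 and 18.15 CPM in BT-11 replicates 1 to 5, against 17.2, 22.8, 20.75, 19.5 and 17.6 CPM in untreated replicates 1 to 5, with a log2 fold change of 0.0069 ± 0.10 (edgeR, adjusted p = 0.988). In neither did the libraries order by group. Psmd10, also named gankyrin, had 6.11 ± 0.716 CPM in BT-11 and 6.08 ± 0.835 CPM in untreated rats. For the core, Psmg1, which forms a dimer with Psmg2 that holds the alpha ring, was at 29.2, 27.0, 26.1, 28.2 and 28.25 CPM in BT-11 replicates 1 to 5, against 33.9, 31.6, 27.5, 24.5 and 28.05 CPM in untreated replicates 1 to 5. Its log2 fold change was -0.082 ± 0.095 (edgeR, adjusted p = 0.823), and Psmg2 had 11.6 ± 0.799 CPM in BT-11 and 12.2 ± 0.853 CPM in untreated rats. Psmg4 was at 11.0, 11.9, 10.45, 10.5 and 10.6 CPM in BT-11 replicates 1 to 5, against 13.6, 14.4, 9.20, 7.35 and 7.52 CPM in untreated replicates 1 to 5. All 5 BT-11 libraries lay in the gap between the 2 high and the 3 low untreated ones, and the log2 fold change was 0.054 ± 0.19 (edgeR, adjusted p = 0.946).

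The PA28 subunit Psme1 had the smallest p of all tested members and did not pass adjustment. It was at 34.0, 29.0, 32.5, 24.0 and 24.1 CPM in BT-11 replicates 1 to 5, against 37.1, 44.3, 33.3, 32.4 and 30.6 CPM in untreated replicates 1 to 5. Untreated replicate 2 was the highest, BT-11 replicates 4 and 5 were the lowest, and the groups overlapped at 30.6 to 34.0 CPM. The log2 fold change was -0.32 ± 0.13 with an interval of -0.60 to -0.034 (edgeR, adjusted p = 0.512). Its partner Psme2, 6607 bases away on chromosome 15 on the opposite strand, had 14.1 ± 1.39 CPM in BT-11 and 14.4 ± 2.23 CPM in untreated rats (SD, n = 5 each), a log2 fold change of -0.042 ± 0.12 (edgeR, adjusted p = 0.933). Psme1 CPM stood at 204 ± 31.4% of Psme2 CPM in BT-11 and 248 ± 17.8% in untreated rats, with overlapping libraries. Psme3, the nuclear PA28 subunit, was named after its values were seen, since it is 1 of the 4 members under an unadjusted p of 0.05. It was at 116, 117, 109, 118 and 105 CPM in BT-11 replicates 1 to 5, against 127, 135, 118, 115 and 121 CPM in untreated replicates 1 to 5, with a log2 fold change of -0.14 ± 0.063 (edgeR, adjusted p = 0.548). Psme4, the PA200 activator, lay the other way. It was at 61.65, 60.8, 56.0, 65.7 and 62.8 CPM in BT-11 replicates 1 to 5, against 54.95, 58.1, 58.9, 59.2 and 61.85 CPM in untreated replicates 1 to 5, with a log2 fold change of 0.055 ± 0.058 (edgeR, adjusted p = 0.803). The inhibitor Psmf1 had 36.6 ± 3.195 CPM in BT-11 and 35.1 ± 3.64 CPM in untreated rats.

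The symbols that are no subunits gave 1 value below 0 and 2 above. Psme3ip1 was at 43.7, 45.3, 46.1, 42.5 and 40.5 CPM in BT-11 replicates 1 to 5, against 48.5, 52.5, 42.2, 45.75 and 44.95 CPM in untreated replicates 1 to 5, a log2 fold change of -0.11 ± 0.074 (edgeR, adjusted p = 0.668). Psmc3ip, known from meiotic recombination, had 4.57 ± 0.695 CPM in BT-11 and 4.49 ± 0.528 CPM in untreated rats. Psma3l was at 0.0881, 2.597, 1.37, 1.56 and 0.527 CPM in BT-11 replicates 1 to 5, against 2.91, 0.989, 0.223, 0.223 and 1.18 CPM in untreated replicates 1 to 5. Its libraries were spread widely within each group, and its counts are fractional. Without these 3 symbols, 37 of 45 members were lower, with a median of -0.069.

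Most proteasome genes shared a pattern across the libraries, which was not confined to them. By CPM, Psmd2, Psmd3, Psmd9 and Psme4 departed from it and were lowest in untreated replicate 1. Outside the members, the ubiquitin genes Ubb and Rps27a were also highest in untreated replicates 1 and 2. Ubqln1 and Nploc4, also outside the members, were lowest in those libraries. Of the 48 tested, 42 (87.5%) had their highest log2 CPM in untreated replicate 1 (25 members) or untreated replicate 2 (17 members), against 31.96% of all genes tested. This pair was picked because the members were highest there, so the choice itself raises the members' share. Over all genes, untreated replicate 1 was highest for 18.1%, untreated replicate 5 for 15.3% and untreated replicate 2 for 13.9%. After centring each gene on its mean over the 10 libraries, the members' median was 0.045, -0.070, -0.021, -0.084 and -0.026 in BT-11 replicates 1 to 5, against 0.20, 0.18, 0.025, -0.081 and -0.084 in untreated replicates 1 to 5. The median over all genes stayed between 0.0001 and 0.014 in every library. Untreated replicates 4 and 5 were thus as low as the lowest BT-11 library, and the groups overlapped. Untreated replicates 1 and 2 were also the highest in both rings, both 19S subunit lists, the activators and the 20S chaperones, while the order of the other libraries differed between roles. The centred mean of the constitutive beta ring was 0.10, -0.028, -0.098, -0.17 and -0.045 in BT-11 replicates 1 to 5, against 0.26, 0.21, 0.056, -0.16 and -0.13 in untreated replicates 1 to 5. For the ATPases it was 0.016, -0.10, -0.033, -0.087 and -0.070 in BT-11 replicates 1 to 5, against 0.21, 0.13, 0.039, -0.030 and -0.066 in untreated replicates 1 to 5. The immunoproteasome differed in untreated replicate 2, where its 3 tested subunits averaged -0.015, against 0.45 in untreated replicate 1.

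**Figure D4:**
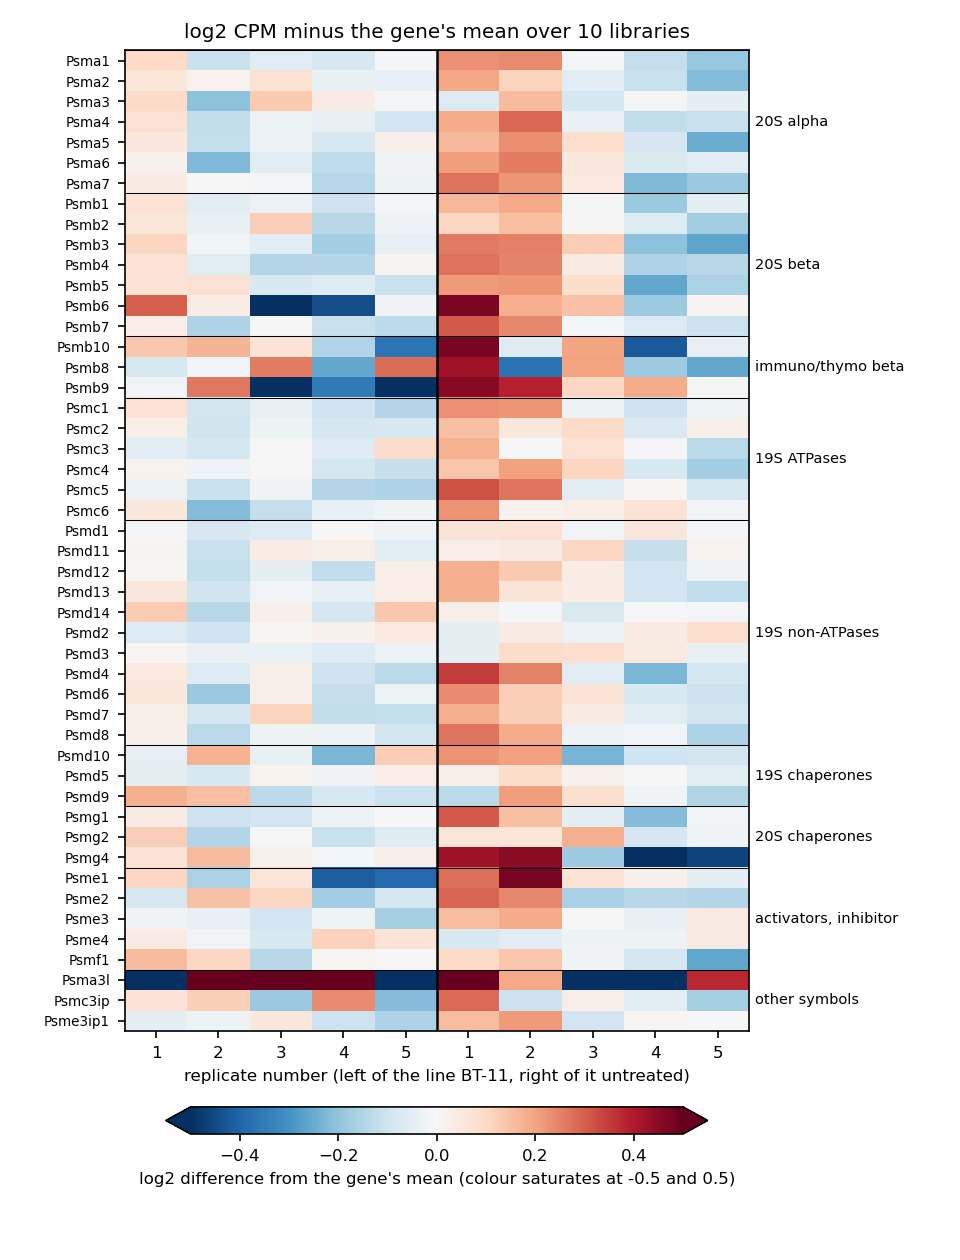
Log2 CPM of 48 proteasome genes minus each gene's mean over the 10 libraries, BT-11 replicates left of the line and untreated replicates right of it, grouped by role. Untreated replicates 1 and 2 are red in most rows, with members' medians of 0.20 and 0.18, and untreated replicates 4 and 5 are pale to blue in most, with medians of -0.081 and -0.084.

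The untreated libraries also spread more widely. The SD of log2 CPM was larger in the untreated than in the BT-11 group for 37 of the 48 members (77.1%), and for 66.95% of all genes. The median coefficient of variation of the members was 5.60% in BT-11 and 10.5% in untreated rats, against 10.2% in BT-11 and 13.4% in untreated rats over all genes. The difference in spread was not tested.

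The direction of the members' median depended on which libraries were compared. Leaving out each library in turn kept the median below 0, between -0.109 without untreated replicate 4 and -0.027 without untreated replicate 1 or 2, with 33 to 43 members lower. In the libraries numbered 1 to 3 alone, 44 of 49 were lower with a median of -0.124, against 49.7% of all genes. In those numbered 4 and 5 alone, 18 of 49 were lower with a median of 0.044, against 48.7% of all genes. This division of the numbers was taken from earlier results of these data and is not a batch that the labels name. Psmb9 and Psme1 had a lower level in both, at -0.38 and -0.27 in numbers 1 to 3 and at -0.56 and -0.38 in numbers 4 and 5. Both had an unadjusted p under 0.05 in edgeR over all these libraries, so a lower level in the parts is no separate result. Numbers 4 and 5 hold only 2 libraries of each group. Without untreated replicates 1 and 2 they stood at -0.30 (edgeR, adjusted p = 0.752) and -0.16 (edgeR, adjusted p = 0.763). edgeR called 0 members in either set, with 0.0% and 4.02% of all genes called.

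**Figure D5:**
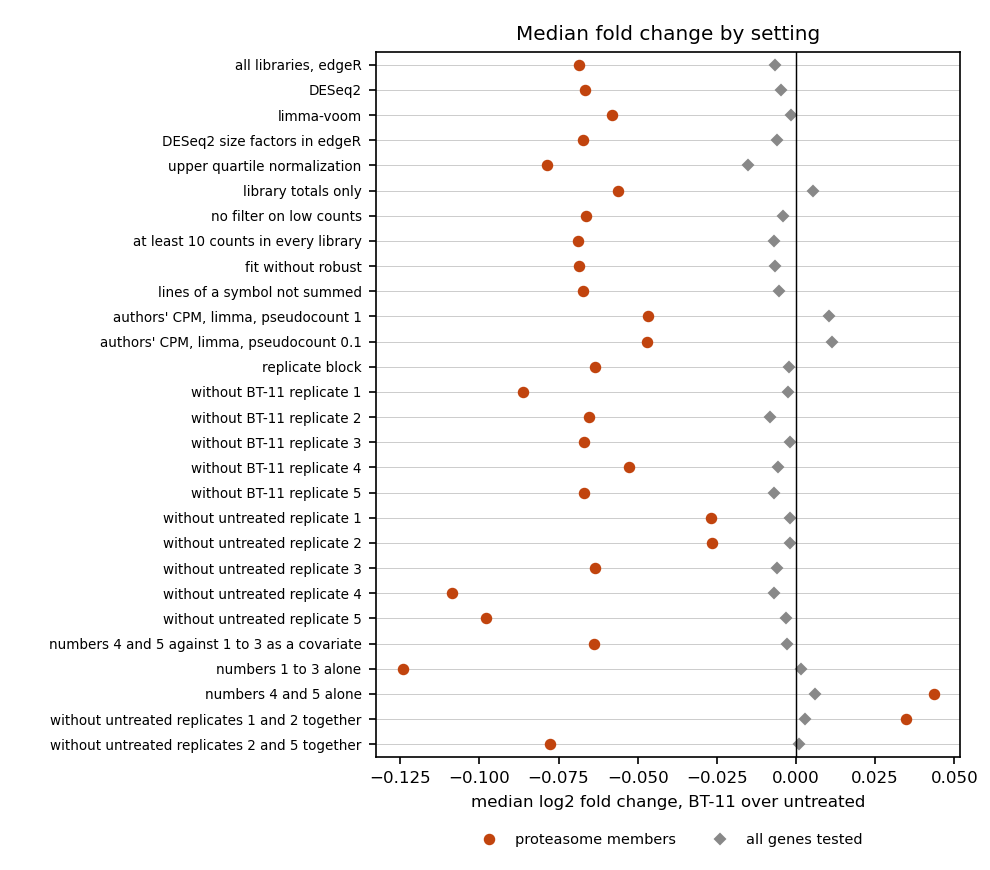
Median log2 fold change, BT-11 over untreated, of the tested proteasome members (circles) and of all genes tested (diamonds) under each tool, scaling and set of libraries. The members' median is below 0 in all settings except 2, numbers 4 and 5 alone (0.044) and the fit without untreated replicates 1 and 2 (0.035).

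Genes of the same pathway outside the Psm symbols gave similar medians, and 0 of them were called. Of 14 tested partners of the proteasome, such as shuttle factors and deubiquitinases, 12 were lower with a median of -0.057. The smallest p among them belonged to the ubiquitin shuttles Ubqln4 (log2 fold change -0.11 ± 0.070, edgeR, adjusted p = 0.661) and Rad23b (-0.092 ± 0.059, adjusted p = 0.667). Of 8 transcription factors and processing enzymes, 5 were lower, with a median of -0.033. Mafg, a small partner of Nfe2l1 and Nfe2l2, was at 37.6 ± 1.99 CPM in BT-11 and 44.6 ± 5.06 CPM in untreated rats, a log2 fold change of -0.26 ± 0.088 (edgeR, adjusted p = 0.451). Nfe2l1, known as the main activator of proteasome genes when the proteasome is inhibited, was at 402 ± 18.3 CPM in BT-11 and 434 ± 26.1 CPM in untreated rats, a log2 fold change of -0.12 ± 0.064 (edgeR, adjusted p = 0.602). Of 13 genes of ubiquitin supply and the p97 segregase, 10 were lower with a median of -0.059, led by the p97 cofactor Nsfl1c (-0.18 ± 0.091, edgeR, adjusted p = 0.594) and the conjugating enzyme Ube2n (-0.084 ± 0.059, adjusted p = 0.693). Without untreated replicate 2, its highest library at 163 CPM, Nsfl1c was at -0.093.

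In the interferon gamma and antigen processing list, 9 of 16 tested genes were lower, with a median of -0.047 and 0 called. Irf9, a subunit of the factor that type I interferon activates, was at 17.4, 17.35, 23.8, 20.6 and 20.9 CPM in BT-11 replicates 1 to 5, against 14.8, 14.97, 19.6, 13.6 and 13.6 CPM in untreated replicates 1 to 5. A single untreated library, replicate 3, reached into the BT-11 range. The log2 fold change was 0.38 ± 0.13 (edgeR, adjusted p = 0.454). In a fit of only replicates 4 and 5 of each group it was 0.61 with an adjusted p of 0.0283 by edgeR. That was the sole value of a named gene past the threshold in the settings tried. The same fit called 4.02% of all genes, on a division taken from earlier results of these data. Ifngr2, a chain of the interferon gamma receptor, was at 53.4 ± 4.99 CPM in BT-11 and 60.4 ± 3.95 CPM in untreated rats, a log2 fold change of -0.19 ± 0.079 (edgeR, adjusted p = 0.513). Tap1, the neighbour of Psmb9, was at 6.97 ± 0.378 CPM in BT-11 and 6.15 ± 1.10 CPM in untreated rats, a log2 fold change of 0.17 ± 0.14 (edgeR, adjusted p = 0.747).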

How the data were processed

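Per the labels' protocols, strand-specific mRNA libraries were sequenced on a HiSeq3000 (single ends, 50 bases). STAR 2.7.9a, bcl2fastq 2.19.1.403, DESeq2, Partek and build rn6 appear in the submitters' processing notes. For the counting program, strand setting and annotation nothing is given in the sources used, and overlapping or antisense genes may share reads. The authors deposited estimated counts (83.2% of values whole) and CPM, which equal the count scaled by the column total plus 1e-04. Coordinates are as listed in rn6, and whether starts count from 0 or 1 was not settled.

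Counts of the 14834 lines were summed per symbol and rounded. BT-11 and untreated libraries were compared by a two-sided quasi-likelihood test (edgeR 4.0.16 under R 4.3.3) with robust dispersion, TMM, a filter on low counts that left out 1915 symbols, and Benjamini-Hochberg adjustment over all 11771 genes. The biological coefficient of variation was 0.14. Each standard error was derived as the absolute log2 fold change over the square root of the test's F statistic. The 95% intervals were built from that standard error with a t quantile. CPM in the text are these counts over the library's column total. Log2 CPM used TMM scaling and a prior count of 2, so a gene's highest library can differ between the measures. Psmc1, at 228 and 236 CPM in untreated replicates 1 and 2, had centred log2 CPM of 0.2301 and 0.2215 there. Alternatives were DESeq2 1.42.0, limma-voom (limma 3.58.1), other scalings and filters, limma on the authors' CPM, a replicate block, and sets of libraries. This step was first tested on simulated data. P-values measure the spread between these animals; reads carry no molecular identifiers. Between replicates, chi-square over its degrees of freedom was 4.38 to 31.0, so no library was a duplicate.

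The members, lists and sets of libraries were chosen with earlier results of these data known. Values in every library are given for Psmb5 to Psmb10, for the member with the smallest p in each direction of each role, and for the highest and lowest tested level; from the other lists, the 2 genes with the smallest p are named, and Tap1 as the neighbour of Psmb9.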

Additional observations from a re-analysis of the deposited data

Results flagged for a closer look

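Of 72 sets of 5 libraries examined for a library that stood apart from its group, 1 did, where chance alone gives about 1 in 20. The mean centred log2 CPM of the 3 tested 20S assembly chaperones was 0.0782 in BT-11 replicate 1, against -0.048 to -0.013 in the other 4 BT-11 libraries. The gap to the nearest of them was 0.723 of the group's range.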

How the results depend on the processing

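Across 27 alternatives, 755 values of 28 named genes were recomputed (19 members by the rule, Psme3 and 8 genes of other lists), 29 of them with the opposite sign, and 17 of the 28 kept their sign throughout; 1 value passed an adjusted p of 0.05, that of Irf9 in numbers 4 and 5 alone. The number of members called was 0 in every setting. Over all genes, DESeq2 called 40, numbers 4 and 5 alone called 479, and leaving out 1 library called 0 to 62, with 62 without untreated replicate 3. Members lower with BT-11 numbered 18 in numbers 4 and 5 alone and 19 without untreated replicates 1 and 2, against 38, and the members' median was 0.0435 in numbers 4 and 5 alone. The other scalings, filters and tools left 36 to 39 members lower with a median of -0.079 to -0.047. Psmd9, at 0.0069, was -0.0026 with upper quartile scaling. In numbers 1 to 3 alone, log2 fold changes of the opposite sign were -0.055 for Psmb8, -0.17 for Psmg4 and -0.080 for Psma3l. In numbers 4 and 5 alone they were 0.129 for Psmb5, 0.020 for Psmd12, 0.042 for Psmd5, 0.102 for Psmg1 and -0.0004 for Psmd9. Without untreated replicates 1 and 2 they were 0.088 for Psmb5, 0.053 for Psmb10 and 0.056 for Psmg1, and without untreated replicates 2 and 5, -0.116 for Psmb8. Leaving out 1 library moved Psmb5 between -0.118 and 0.0022, Psmb8 between -0.012 and 0.200, Psmb10 between -0.174 and 0.053, Psma3 between -0.0028 and 0.076, Psmd14 between -0.0017 and 0.067, Psmd9 between -0.037 and 0.067, Psmg4 between -0.050 and 0.197, and Psma3l between -0.343 and 0.860; the cause was not tested. With no change of sign, it moved Psmb7 to -0.088, Psmd12 to -0.061 and Psmg1 to -0.0070 without untreated replicate 1, and Psmd5 to -0.014 and Psme3ip1 to -0.069 without untreated replicate 2. With the replicate number as a block, 0 members were called, 38 were lower and the median was -0.063. Whether the numbers mark pairs is not settled by these values. Same-numbered libraries correlated at 0.058 to 0.261, 4 of these correlations being over 0.1, the lowest value that was taken as pairing. Of 5 BT-11 libraries, 3 correlated best with their own number. BT-11 replicate 1 correlated best with untreated replicate 2, at 0.274. Psmb8 and Psmb9, at 28 to 57 counts per library, are limited by depth. Shorter gene models had lower fold changes over all genes (median -0.043 under 1500 bases and 0.008 above), and the members' medians were -0.077 and -0.052. Spearman's rho of log2 fold change with length was 0.165 over all tested symbols of 1 line, and -0.003 over the 48 members. The members were shorter, with a median of 1302.5 bases, against 2225.5 over those symbols.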
